A study of Mus musculus with 12 samples.

Results

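The libraries described here are those made from 1/8 and from 1/4 of a mouse oocyte, 4 of the 12 libraries of the series, with 2 of each fraction. They were chosen by the input fraction in the labels, and according to the methods all 4 were amplified for 18 cycles. The oocytes were at the germinal vesicle (GV) stage, the full-grown stage arrested in prophase of meiosis, and came from a healthy, untreated B6D2F1 female aged 12 weeks. Lysates of 2 oocytes were diluted to give 1/2, 1/4 and 1/8 of a cell, so both groups share genotype, stage, age and animal, and every fraction comes from the same pair of cells. The same amount of a mix of synthetic ERCC RNAs was then added to each tube, poly(A) RNA was captured and amplified, and Nextera libraries were sequenced. The 1/2 oocytes and the whole oocytes at 18 cycles, 2 libraries each, serve below as neighbours on the dilution series.

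A full-grown oocyte stores a large pool of maternal mRNA that is translated during meiosis and after fertilisation, while its own transcription is shutting down. The pool is rich in messages for the zona pellucida coat, for secreted growth factors, for the subcortical maternal complex and for the machinery that stores or degrades mRNA. When the lysate is diluted, a fraction of each message is carried over, and added ERCC RNA of a fixed amount takes a growing share of the reads. Comparing 1/8 with 1/4 asks whether a further 2-fold dilution, at equal cycle number, gives the 2-fold lower ratio to ERCC RNA and keeps the proportions among messages.

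The 1/8 libraries held 11404262 (replicate 1) and 1702062 (replicate 2) counts on genes, and the 1/4 libraries 4027907 and 5049518. Depth therefore differed most within the 1/8 group, by 6.70 times, and the second 1/8 library sets the precision for rare messages. All 12 oocyte markers checked, among them Zp3, Gdf9 and Figla, were detected in every library and summed to 22442 and 21177 CPM (gene counts scaled to the same total in every library) in 1/8 and to 19472 and 19816 CPM in 1/4, with Zar1 the most abundant on average. Markers of granulosa and cumulus cells summed to 78.3 and 71.1 CPM in 1/8 and 57.8 and 60.8 CPM in 1/4. Most of that sum was Cyp19a1 and Nr5a2, whereas Foxl2 and Fshr, which define granulosa cells, had 0 counts in all 4 libraries. Other granulosa markers were detected at low counts. Amh had 10 and 0 counts in 1/8 and 21 and 7 in 1/4, and Kitl had 17 and 8 against 10 and 37. Inha, Inhba, Hsd17b1, Amhr2, Nr5a1 and Has2 had at most 10 counts in any of these libraries. Blood and immune markers reached 20.3 and 12.9 CPM in 1/8 and 20.9 and 28.5 CPM in 1/4, most of it Csf1r. The rest was Cd68, at 2.46 and 0 CPM in 1/8 and 0.497 and 4.16 CPM in 1/4, with Ptprc, Hba-a1, Hbb-bs and Lyz2 at 0. Stromal markers stayed at or below 0.588 CPM, and Col1a1, Col1a2, Acta2 and Cyp17a1 were at 0. The oocyte label therefore stands in all 4 libraries.

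The share of ERCC counts was 1.99% (95% Wilson interval 1.98 to 2.00) and 2.10% (2.08 to 2.13) in 1/8, and 0.465% (0.458 to 0.471) and 0.573% (0.566 to 0.579) in 1/4. Both 1/8 libraries lay far above both 1/4 libraries, and the distance between groups exceeded the spread within either. Expressed as gene counts per ERCC count, the values were 49.3 and 46.5 in 1/8 and 214 and 174 in 1/4, or 47.9 ± 1.95 and 194 ± 28.7 (mean ± SD, n = 2 each). The ratio thus fell by 2.01 on the log2 scale from 1/4 to 1/8, a 4.03-fold difference where the dilution was 2-fold. An exact two-sided permutation test on 2 against 2 libraries gave p = 0.333, the smallest p that this design allows. The 4 possible pairs of libraries gave 4.35-fold, 3.52-fold, 4.61-fold and 3.73-fold, so every pair lay above the 2-fold step. The 1/2 libraries stood at 439 and 344 gene counts per ERCC count and whole oocytes at 18 cycles at 1873 and 1158. The step from 1/2 to 1/4 was -1.01 on the log2 scale, 2.01-fold, and the step from whole to 1/2 was -1.92, 3.79-fold, so the 4.03-fold step was not the only one above 2-fold. Whole oocytes amplified for 10 cycles (323 and 360.0) and 14 cycles (347 and 354) had lower ratios than those at 18 cycles. Neighbouring steps share libraries, and with 2 libraries per group their difference in ratio was not tested. The intervals cover counting error only, since reads amplified without molecular identifiers are not independent molecules.

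**Figure D1:**
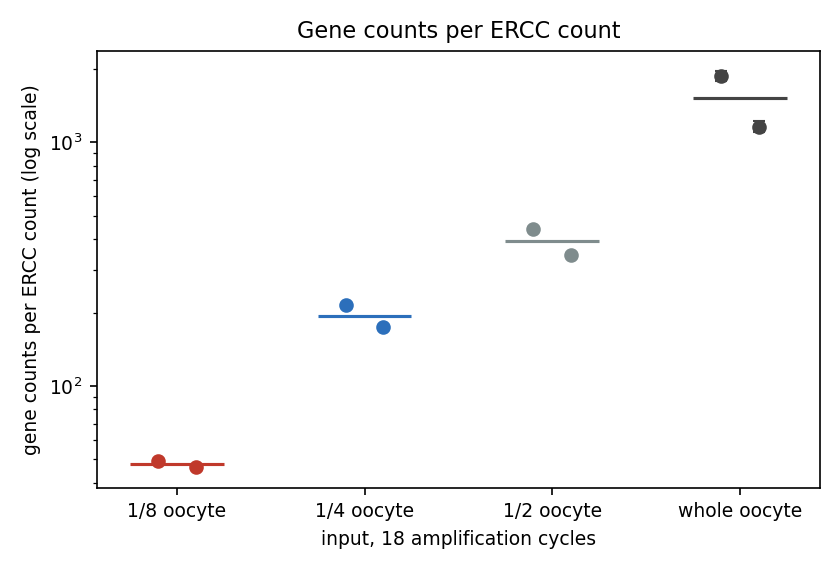
Gene counts per ERCC count (log scale) against input at 18 cycles, with a point per library (95% counting interval, mostly smaller than the point) and a line at the group mean. The 1/8 libraries lie at 49.3 and 46.5 and the 1/4 libraries at 214 and 174, a 4.03-fold gap between group means on the log scale.

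The larger step was shared by the ERCC molecules themselves. Of the molecules with at least 10 counts in all 4 libraries there were 24, which carried 99.0% to 99.6% of the ERCC counts. Relative to gene counts, all 24 were higher in both 1/8 libraries than in both 1/4 libraries. Taken molecule by molecule, the log2 step of gene counts per ERCC count ranged from -3.03 to -1.57 with a median of -2.29, and all 24 lay below -1. By share of ERCC counts, the upper 12 of these molecules had a median of -2.38 and the lower 12 a median of -2.18. Rarer molecules were not examined. More kinds of ERCC RNA were detected in 1/8 (54 and 50) than in 1/4 (47 and 48). The 1/8 libraries also held more ERCC counts, 231470 and 36593 against 18802 and 29075, and the kinds were not compared at equal ERCC depth.

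Scaling each library by its ERCC molecules puts this step on every gene. Of 14788 genes tested, 8895 were lower in 1/8 than in 1/4 at an adjusted p under 0.01 in the quasi-likelihood F test of edgeR, adjusted after Benjamini and Hochberg, 60.2% of all, and 0 were higher (11 at an unadjusted p under 0.05, 0 with DESeq2, and 1 without 1/8 replicate 1). The median log2 fold change was -2.19, and the middle 80% of genes lay between -3.66 and -0.89. Gdf9, the oocyte's growth factor for the surrounding granulosa cells, changed by -2.06 (SE 0.47, adjusted p = 0.000181), Zp2, a zona pellucida glycoprotein that binds sperm, by -2.01 (SE 0.48, adjusted p = 0.000309), and Psma7, a core subunit of the proteasome, by -2.12 (SE 0.47, adjusted p = 0.000136). These lay close to the median of all genes, but other abundant messages did not. Bmp15, a partner of Gdf9, was at -0.90 (SE 0.45, adjusted p = 0.0644) and Khdc3, a maternal gene, at -4.78 (SE 0.58, adjusted p = 1.01e-08).

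Tested against the 2-fold dilution instead of against equality, 3124 genes (21.1%) lay below the step at an adjusted p under 0.01 and 1 lay above it, with a median of -1.19 log2 units relative to the step. Because all genes share the same ERCC size factors, these counts largely carry 1 shift between libraries. They are not separate evidence of a step beyond 2-fold. The lower count depended on single libraries: it was 805 without 1/4 replicate 1, 901 without 1/8 replicate 2 and 1489 without 1/8 replicate 1. It was 1837 when libraries were scaled by their total ERCC counts. The gene above the step, Oosp3, a relative of the oocyte-secreted proteins, is named after its value was seen. It had 3206 and 876 raw counts in 1/8 and 211 and 203 in 1/4, and its ERCC-scaled log2 fold change of 0.77 (SE 0.49, adjusted p = 0.00455 against the step) is uncertain because it overlaps another gene. The number above the step was 3 without 1/8 replicate 1, 2 without whole oocyte replicate 1, and 0 without 1/8 replicate 2, without 1/4 replicate 1 or without 1/4 replicate 2 (24, 41 and 27 at an unadjusted p under 0.05).

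To compare the proportions among messages, libraries were scaled by the median ratio over genes, which removes the shared step and brings the median log2 fold change to 0.01. On this scale, called normalised counts below, 506 genes (3.42%) fell and 228 (1.54%) rose in 1/8 against 1/4 at an adjusted p under 0.01. The quartiles of all genes were -0.68 and 0.64, and 11 of those tested had 0 counts in all 4 libraries. Without regard to the test, both 1/8 libraries lay below both 1/4 libraries for 4323 genes (29.2%) and above them for 4218 (28.5%), and the groups overlapped for 6247. Falls made up 68.9% of the calls, against 60.6% with TMM size factors, 88.2% without 1/4 replicate 1 and 88.8% without 1/4 replicate 2. The counts of falls and rises were 90 and 12 without 1/4 replicate 1, 110 and 47 without 1/8 replicate 2, 293 and 37 without 1/4 replicate 2, and 291 and 153 without 1/8 replicate 1. DESeq2 gave 727 falls and 384 rises.

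The largest falls were chosen among called genes with at least 50 normalised counts on average, groups that did not overlap and no overlapping gene, of which there were 188. In the genes named here that average rests on the 1/4 libraries. Gm26917, a long noncoding RNA on chromosome 17 (GRCm38, 39843013 to 39846341) beside the ribosomal RNA gene CT010467.1, had 75.5 and 1.98 normalised counts in 1/8 and 8118 and 4444 in 1/4. Its groups were apart by the rule of choice, yet it also varied within other groups, with 6.69 and 104 in 1/2 and 6773 and 4.75 in whole oocytes at 18 cycles. Its log2 fold change of -7.03 (SE 1.44, adjusted p = 0.00309) rested on single libraries. Without 1/8 replicate 1 it was -11.51 (adjusted p = 0.0242), and without 1/8 replicate 2 -6.36 (adjusted p = 0.0512). DESeq2 gave an adjusted p of 0.0247. CT010467.1 itself, the gene with the most counts, had 33254 and 34786 normalised counts in 1/8 and 45975 and 38694 in 1/4, a difference of -0.32 (SE 0.35, adjusted p = 0.623). It overlaps another gene, which makes its counts uncertain.

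Of the protein-coding falls, Pim3, a serine/threonine kinase gene on chromosome 15 (88862186 to 88865726), had 6.76 and 17.8 normalised counts in 1/8 against 265 and 153 in 1/4. Gsc, which encodes the homeobox protein goosecoid and lies on chromosome 12 (104471209 to 104473330), had 12.3 and 1.98 against 182 and 184. In both genes the 1/8 libraries lay more than an order of magnitude below the 1/4 group mean. Both the size of the gap and the separation of the groups follow from the rule that chose these genes. Pim3 fell by 4.41 on the log2 scale (SE 0.55, adjusted p = 9.46e-05) and Gsc fell by 4.26 (SE 0.51, adjusted p = 7.63e-05). Without 1/8 replicate 1 the value for Gsc was -6.41, with its call kept. Plekhf2, for an endosomal protein with PH and FYVE domains on chromosome 4 (10988662 to 11007927), had 4.11 and 9.91 against 104 and 117. Akirin1, for a nuclear protein encoded on the same chromosome (123734559 to 123750345), had 7.93 and 0 against 81.3 and 113. By the same rule the low libraries were both of 1/8, and 1 of them held no read of Akirin1. Plekhf2 fell by 4.27 (SE 0.71, adjusted p = 0.000622), a call lost without 1/8 replicate 1 (-3.44, adjusted p = 0.0271). Akirin1 fell by 4.04 (SE 0.67, adjusted p = 0.000608), and without 1/8 replicate 1 its fitted value of -9.46 is against a lone library at 0.

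The largest rises came from 136 genes under the same rule, whose average of 50 rests on the 1/8 libraries in all those named but AA545190. Mrpl1, a protein of the large subunit of the mitochondrial ribosome (chromosome 5, 96209493 to 96266727), had 248 and 258 normalised counts in 1/8 and 44.3 and 40.9 in 1/4. Libraries of a group differed little here, and Mrpl1 rose by 2.57 (SE 0.38, adjusted p = 0.000223), keeping its call in every alternative run. AA545190, a long noncoding RNA on chromosome 6 (10971560 to 10979638), behaved alike, with 339 and 353 against 58.7 and 64.3 and a rise of 2.49 (SE 0.36, adjusted p = 0.000217), which missed the threshold without 1/4 replicate 1 (adjusted p = 0.0102). Ocrl, an inositol polyphosphate 5-phosphatase gene on the X chromosome (47912387 to 47965868), had 90.5 and 105 in 1/8 against 15.4 and 8.04 in 1/4. Its rise of 3.07 (SE 0.69, adjusted p = 0.00563) was the largest of the rule and among the least stable. The call was lost without 1/8 replicate 1 (adjusted p = 0.0224), 1/8 replicate 2 (0.028), 1/4 replicate 1 (0.0295) or 1/4 replicate 2 (0.0668).

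The remaining rises were a pair of predicted protein-coding genes. Gm13089 had 171 and 276 normalised counts in 1/8 and 42.5 and 28.1 in 1/4, a rise of 2.65 (SE 0.44, adjusted p = 0.000622). Gm7173 had 133 and 236 against 28.9 and 29.5, a rise of 2.64 (SE 0.49, adjusted p = 0.00168). That both were higher in each 1/8 library than in either 1/4 library was a condition of their choice. The call of Gm13089 was lost without 1/8 replicate 2 (adjusted p = 0.011) or 1/4 replicate 2 (0.0162), and that of Gm7173 without 1/8 replicate 2 (0.0248), 1/4 replicate 1 (0.0313) or 1/4 replicate 2 (0.0187).

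**Figure D2:**
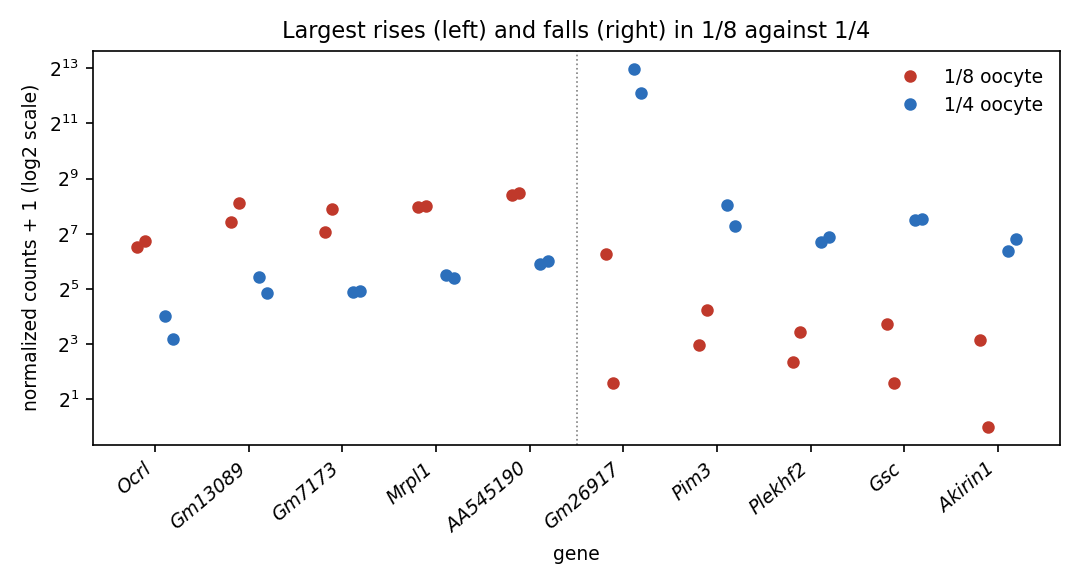
Normalised counts plus 1 (log2 scale) in each 1/8 and 1/4 library for the 5 largest rises, left, and the 5 largest falls, right. The groups are apart in all of them, by construction of the choice, and replicates lie closest in Mrpl1 (248 and 258 against 44.3 and 40.9) and widest in Gm26917.

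Among genes of the oocyte coat and secreted factors, 3 of 12 passed the threshold, all as rises (1.54% of all genes rose and 3.42% fell), and the median of the list was 0.25 against 0.01 for all genes tested (0.13 without 1/8 replicate 1, 0.47 without 1/8 replicate 2 and 0.40 with the GC offset described below). Bmp15, a growth factor of the TGF-beta family that the oocyte releases to its granulosa cells, had 8475 and 9597 normalised counts in 1/8 and 3593 and 3627 in 1/4. Its rise of 1.32 (SE 0.27, adjusted p = 0.0031) was lost without 1/8 replicate 2 (adjusted p = 0.0231), 1/4 replicate 1 (0.0671) or 1/4 replicate 2 (0.0465). Its partner Gdf9 overlapped between groups, with 14514 and 11931 against 13395 and 10004 (0.18, SE 0.26, adjusted p = 0.73), and Zp2 had 8574 and 8272 against 7285 and 7273 (0.21, SE 0.29, adjusted p = 0.705). Fgf8, a growth factor that the oocyte sends to its cumulus cells, named after its value was seen, had 684 and 345.0 against 1813 and 1292.5, just short of the threshold (-1.58, SE 0.39, adjusted p = 0.0107). It is GC-rich (62.8%), and the list had 1 fall in 8 of 17 alternative runs, among them DESeq2. Oosp1 and Oosp2, for oocyte-secreted proteins, are named after their values were seen. Oosp1 had 4896 and 7346 in 1/8 against 1117 and 1334 in 1/4, and Oosp2 had 1650.3 and 2651 against 487 and 712. Both 1/8 libraries were thus higher for both genes, with rises of 2.32 (SE 0.33, adjusted p = 0.00017) and 1.84 (SE 0.30, adjusted p = 0.000608). The number of rises in the list was 1 without 1/4 replicate 1, 1 without 1/8 replicate 2 and 2 without 1/4 replicate 2. As a whole the list took 17141 and 15659.8 CPM in 1/8 and 12208 and 12228 CPM in 1/4. In 1/2 it took 8062 and 7983 CPM and in whole oocytes at 18 cycles 6795 and 5987 CPM. Whole oocytes at 10 cycles had 21597 and 18856 CPM and those at 14 cycles 21230 and 22654 CPM.

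The maternal effect genes, which the embryo inherits and which include the subcortical maternal complex, were lower in sum in both 1/8 libraries than in both 1/4 libraries. They took 42578 and 35738 CPM in 1/8 and 59536 and 53894 CPM in 1/4. In 1/2 they took 49410 and 41541 CPM and in whole oocytes at 18 cycles 38987 and 35988 CPM. Whole oocytes at 10 cycles had 43744 and 38325 CPM and those at 14 cycles 41592 and 43579 CPM. The median log2 fold change of the list was nevertheless 0.32 (0.13 without 1/8 replicate 1, 0.52 without 1/8 replicate 2, 0.56 with the GC offset), while 2 of 19 fell and 1 rose (3.42% and 1.54% of all genes). Khdc3, a member of the subcortical complex and among the genes with the most counts, took 4266 and 2019 CPM of the sum in 1/8 and 20844 and 13851 CPM in 1/4. It had 14295 and 6815 normalised counts in 1/8 and 75869 and 46865 in 1/4. In 1/2 Khdc3 had 63199.8 and 47571, and in whole oocytes at 18 cycles 55935 and 33958.5. Its mean over the whole oocytes at 10 and 14 cycles was 2914 CPM. Khdc3 was lower in each 1/8 library and fell by 2.54 (SE 0.36, adjusted p = 0.000171), a call kept in every alternative run, and its overlap with another gene leaves part of its reads uncertain. Zbed3, a further partner of that complex, had 23191 and 15190.2 against 47733 and 43191, which missed the threshold (-1.24, SE 0.31, adjusted p = 0.0115) and overlaps another gene too, while it passed in 7 of 17 alternative runs, among them DESeq2. Padi6 (13000.4 and 9496 against 8512 and 9135) and Nlrp14 (11253 and 12968 against 7449.9 and 6753) were higher in both 1/8 libraries, at 0.35 (SE 0.27, adjusted p = 0.453) and 0.77 (SE 0.27, adjusted p = 0.0681). The other calls, named after their values were seen, were Zar1 and Dppa3. Zar1, which binds stored maternal mRNA, had 7148 and 4872 against 22767 and 18518 and fell by 1.78 (SE 0.28, adjusted p = 0.000429). Dppa3, which protects the maternal genome's methylation, had 4102 and 5415 against 1660.04 and 1695 and rose by 1.503 (SE 0.28, adjusted p = 0.00153). Calls in the list numbered 1 without 1/4 replicate 1 and 1 without 1/8 replicate 2, both falls, and 2 falls without 1/4 replicate 2. There were 3 falls and 3 rises with DESeq2 or no filter, 3 and 2 with only the 4 libraries or the replicate block, and 2 and 2 with the GC offset.

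Of the oocyte transcription factors 12 of 14 were tested, 1 fell and 3 rose, against 3.42% and 1.54% of all genes. Sohlh1 had 0 counts in all 4 libraries, and the median of the other 11 was 0.43 (0.08 without 1/8 replicate 1, 0.28 without 1/4 replicate 1, 0.68 without 1/8 replicate 2 and 0.28 with the GC offset). The rises were Obox1, Obox2 and Obox5, homeobox genes of a cluster on chromosome 7 whose near-identical copies make the assignment of reads uncertain. Obox2 had 1578 and 2173 normalised counts in 1/8 and 471 and 259 in 1/4, and Obox5 had 1719 and 2579.6 against 649.7 and 508. They were higher in both 1/8 libraries, by 2.36 (SE 0.34, adjusted p = 0.000199) and 1.89 (SE 0.31, adjusted p = 0.000523), the latter call lost without 1/4 replicate 2 (adjusted p = 0.0161). Foxo3, which holds follicles dormant, had 1799.6 and 1711 against 3750.2 and 3461 and missed the threshold (-1.04, SE 0.27, adjusted p = 0.0161), which it passed in 3 of 17 alternative runs. Obox1 and Taf4b, which like Obox2 overlap other genes, are named after their values were seen. Obox1 had 759 and 874 against 248 and 191, a rise of 1.90 (SE 0.33, adjusted p = 0.000861). Taf4b, a subunit of the general factor TFIID needed for oocyte reserve, had 145 and 198 against 560.3 and 728 and fell by 1.93 (SE 0.33, adjusted p = 0.000732). With at least 10 counts required in every library the median of the list turned to -0.37, over 9 genes. The list lost its fall without 1/4 replicate 2 or 1/8 replicate 1, and kept 1 rise without 1/4 replicate 2.

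Genes of meiotic arrest and maturation held 1 rise among 22 of 23 tested (1.54% of all genes rose) and a median of 0.18, which was -0.06 without 1/8 replicate 1, 0.35 without 1/8 replicate 2 and 0.09 without 1/4 replicate 1. Mos, the kinase that starts the MAPK pathway in maturing oocytes, had 5455 and 3141 normalised counts in 1/8 and 1586 and 2160.2 in 1/4. Wee2, which keeps the kinase CDK1 inhibited during arrest, had 1413 and 1582 against 664 and 809. Bub1b, a guard of chromosome attachment to the spindle, had 4321 and 4679 against 2862 and 2775. All of them were higher in both 1/8 libraries without passing the threshold, at 1.20 (SE 0.34, adjusted p = 0.0235), 1.02 (SE 0.29, adjusted p = 0.0256) and 0.67 (SE 0.29, adjusted p = 0.128). In alternative runs Mos passed in 3 of 17 and Wee2 in 1. The rise, Aurkc, a germ-cell aurora kinase named after its value was seen, had 381 and 311 against 100.3 and 133 (1.57, SE 0.35, adjusted p = 0.00584). The list had no rise without any one of the 1/8 or 1/4 libraries, but 4 with DESeq2, 3 with no filter and 2 with the GC offset, and 1 fall with no filter, the GC offset, the replicate block or without 1/8 replicate 1.

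Among 28 genes of mRNA decay and storage, 14 were higher and 5 lower in both 1/8 libraries (28.5% and 29.2% of all genes), and 1 fell (3.42% of all genes), with a median of 0.29, or 0.09 with the GC offset. Btg4, the adaptor that brings the CCR4-NOT deadenylase to maternal mRNA, had 3885 and 5094 normalised counts in 1/8 and 3409.6 and 2208 in 1/4. Cpeb1, which controls polyadenylation of stored messages, had 4261 and 4399.8 against 4245 and 3917, and Dcp1a, a decapping factor, had 2877 and 3169 against 2283 and 2182. These genes overlap other genes and differed by 0.68 (SE 0.33, adjusted p = 0.186), 0.09 (SE 0.27, adjusted p = 0.882) and 0.44 (SE 0.28, adjusted p = 0.343), none past the threshold. The fall was Zfp36l2, an RNA-binding factor that directs mRNA decay, named after its value was seen, with 31.7 and 35.7 against 143 and 86.4 (-1.78, SE 0.41, adjusted p = 0.00697). It overlaps another gene, and no member fell without any one of the 6 fractional libraries, with only the 4 libraries in the fit, with TMM or with the GC offset, while 2 fell with no filter.

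The housekeeping lists are given next, and differences between lists were not tested. Of the cytoplasmic ribosomal protein genes, whose processed copies across the genome make their counts uncertain, 78 of 83 were tested, 1 fell and 2 rose (3.42% and 1.54% of all genes), and the median was -0.09. It was -0.18 without 1/4 replicate 1, -0.01 without 1/4 replicate 2, -0.04 without 1/8 replicate 2, -0.06 without 1/8 replicate 1, -0.03 with TMM or with total gene counts, and 0.08 with the GC offset. Rplp0 had 1097 and 621 normalised counts in 1/8 against 856 and 993 in 1/4 (-0.10, SE 0.31, adjusted p = 0.886), and Rpl4 729 and 872 against 386 and 415 (1.00, SE 0.31, adjusted p = 0.0393). The calls, named after their values were seen, were Rpl8 (376 and 331 against 881 and 738, adjusted p = 0.009995), Rps15a (201 and 416 against 89.5 and 115, adjusted p = 0.00903) and Rpl39 (229.8 and 529 against 100.3 and 101, adjusted p = 0.00247), at -1.19, 1.57 and 1.89. Rpl4 and Rpl39 overlap other genes. None of these calls belonged to the most abundant members, and the list had no call without 1/4 replicate 1, 1/4 replicate 2 or 1/8 replicate 2. Its fall was also lost with TMM, total gene counts or the GC offset, the last of which left 1 rise, while DESeq2 gave 3 rises. The list took 3787 and 4154 CPM in 1/8 and 3674 and 3931 CPM in 1/4.

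All 7 tested genes of the mitochondrial genome, of 13, were higher in both 1/8 libraries than in both 1/4 libraries, where 28.5% of all genes were, with a median of 1.01, or 0.33 with the GC offset, and 6 had 0 counts in all 4. Their sum was 596 and 774 CPM in 1/8, 277 and 382 in 1/4, 169 and 206 in 1/2 and 162 and 278 in whole oocytes at 18 cycles. It was highest in whole oocytes at 10 cycles (1698 and 859) and 14 cycles (1097 and 1381). The message mt-Cytb, for cytochrome b, had 660.3 and 722 normalised counts in 1/8 against 266 and 284 in 1/4, and mt-Co1, for a catalytic subunit of cytochrome oxidase, had 517 and 678 against 287 and 432. The groups were apart, but only mt-Cytb passed the threshold (1.33, SE 0.32, adjusted p = 0.00973), against 0.72 for mt-Co1 (SE 0.30, adjusted p = 0.125) and 1.01 for mt-Nd1 (SE 0.35, adjusted p = 0.0658), both of which overlap other genes. The call of mt-Cytb was lost without any one of the 6 fractional libraries, with adjusted p from 0.0137 (without 1/2 replicate 1) to 0.125 (without 1/4 replicate 1).

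Nuclear genes of oxidative phosphorylation, 80 of 83 tested, held 2 falls and 2 rises (3.42% and 1.54% of all genes) and had a median of 0.08, which turned to -0.08 without 1/8 replicate 2, -0.03 without 1/4 replicate 1 and -0.08 with at least 10 counts in every library, and was 0.15 without 1/4 replicate 2, 0.03 with the replicate block, 0.14 with TMM, 0.13 with total gene counts and 0.21 with the GC offset. Cox4i1 (2409.7 and 1975 normalised counts in 1/8 against 3357 and 2877 in 1/4), Atp5b (1305 and 939.8 against 997 and 1022) and Atp5e (837 and 1729 against 1944 and 1617) did not pass, at -0.51 (adjusted p = 0.254), 0.16 (0.767) and -0.48 (0.345). The value for Atp5e was -1.07 without 1/8 replicate 2 and -0.0213 without 1/8 replicate 1. The falls were Uqcrc1 (7.93 and 3.97 against 74.1 and 67.7) and Atp5d (147 and 75.3 against 526 and 367), and the rises Ndufs4 (345 and 502 against 92.2 and 135) and Ndufb3 (187 and 232 against 44.3 and 56.3). These members, named after their values were seen, changed by -3.36 (adjusted p = 0.00663), -1.95 (0.000972), 1.89 (0.00176) and 2.05 (0.00242), each with the groups apart. Cox4i1, Atp5b and Atp5d overlap other genes. The list kept no call without 1/4 replicate 1 or without 1/8 replicate 2, while 1 fall and 2 rises stood without 1/8 replicate 1, and 1 of each without 1/4 replicate 2. Both falls were lost with the GC offset and 1 with TMM.

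Of the replication-dependent histone genes, whose mRNAs mostly lack a poly(A) tail and which are near-identical copies, 32 of 67 were tested, 15 lay lower and 5 higher in both 1/8 libraries (29.2% and 28.5% of all genes), and 1 fell (3.42% of all genes). Their median was -0.60, which turned to 0.67 when a minimum of 10 counts in every library left 5 genes, and was -1.34 without 1/8 replicate 1 and -0.39 with the GC offset. Hist1h2bc (577 and 420.4 normalised counts in 1/8 against 224 and 332 in 1/4), Hist1h1a (77.9 and 81.3 against 31.6 and 67.7) and Hist3h2a (85.8 and 63.4 against 60.5 and 40.9) were higher in both 1/8 libraries, at 0.85 (adjusted p = 0.177), 0.67 (0.392) and 0.59 (0.442). Hist3h2a overlaps another gene. These most abundant members are thus among the 5 that lay higher, and did not pass the threshold. Hist3h2ba, named after its value was seen, fell from 216 and 125 in 1/4 to 63.2 and 35.7 in 1/8 (-1.70, SE 0.40, adjusted p = 0.00725), a fall that was absent from the list without 1/4 replicate 1, 1/8 replicate 1 or 1/8 replicate 2, and with only the 4 libraries, TMM or the GC offset.

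In the proteasome 44 of 48 genes were tested, 2 rose (1.54% of all genes did), 23 lay higher and 10 lower in both 1/8 libraries (28.5% and 29.2% of all genes), and the median was 0.45. Psma7 had 4289 and 4832 normalised counts in 1/8 against 4169.5 and 4339 in 1/4 (0.10, SE 0.26, adjusted p = 0.858), and Psme4, an activator of the core particle that overlaps another gene, had 563 and 968 against 462 and 387 (0.84, SE 0.32, adjusted p = 0.0881). Psma2, an alpha subunit of the core, had 2043 and 2102 against 439 and 683. It was higher in both 1/8 libraries and rose by 1.88 (SE 0.32, adjusted p = 0.000791), a call lost without 1/4 replicate 1 (adjusted p = 0.0419), and it overlaps another gene. Psmc2, an ATPase of the regulatory particle named after its value was seen, had 571 and 704 against 248 and 247 and rose by 1.36 (SE 0.31, adjusted p = 0.00587). The list had no rise without 1/4 replicate 1, 1 each without 1/4 replicate 2, 1/8 replicate 1 or 1/8 replicate 2, and 1 with the GC offset, but 4 rises and 1 fall with DESeq2. Its sum was 8639 and 8879 CPM in 1/8 and 6065 and 7317 CPM in 1/4.

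The direction of a gene's change moved with the base composition of its transcript. With genes in 5 bins of equal size, in the bin with the lowest GC content (28.1% to 43.8%) the median log2 fold change was 0.49, with 43 falls and 107 rises. It dropped through 0.29, 0.09 and -0.16 to -0.66 in the bin with the highest GC content (55.2% to 82.9%), with 232 falls and 4 rises. Across 14776 genes Spearman's rho between GC content and fold change was -0.39, a description since genes are not independent replicates. For exonic length, over all annotated exons of a gene, it was -0.04. In 5 bins from the shortest to the longest genes, rises went from 80 through 55, 41 and 29 to 23. Falls went from 89 through 112, 122 and 106 to 76. Genes that fell had a median GC content of 54.5% and those that rose 44.2%, against 49.4% for all tested. Of the genes above, Khdc3 (57.9%), Pim3 (61.9%), Gsc (66.6%) and Gm26917 (69.1%) are GC-rich and Obox5 (41.9%), Bmp15 (42.5%), Mrpl1 (41.6%) and mt-Cytb (39.1%) GC-poor, but Plekhf2 (44.2%), Zar1 (44.2%) and Akirin1 (46.4%) fell with transcripts below the median.

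Both 1/8 libraries took part in this relation, to unequal degrees. Set against 1/4 replicates 1 and 2, rho was -0.30 and -0.27 for 1/8 replicate 1 and -0.51 for 1/8 replicate 2 in either pairing. Between the 1/8 libraries rho was 0.45, and between the 1/4 libraries 0.12. Within single libraries rho between CPM and GC content, over 9478 genes, was negative in 1/8 (-0.01 and -0.17), positive in 1/4 (0.13, 0.10) and 1/2 (0.13, 0.08), positive in whole oocytes at 18 cycles (0.17, 0.16), and -0.09 to -0.07 in whole oocytes at 10 and 14 cycles. The 1/8 library with the fewest counts was thus the one poorest in GC, with a count-weighted mean of 48.1% against 49.3% in the other 1/8 library and 50.5% and 50.1% in 1/4. With each library's GC trend removed, chosen after seeing the data, 365 genes fell and 148 rose. Under that offset Bmp15 (0.89, adjusted p = 0.0222), mt-Cytb (0.75, adjusted p = 0.136), Ocrl (2.84, adjusted p = 0.0116) and Gm26917 (-5.36, adjusted p = 0.0175) were among the calls lost. So were the falls of Zfp36l2, Rpl8, Uqcrc1, Atp5d and Hist3h2ba and 1 rise each of the ribosomal proteins and the proteasome. A lost call alone does not show how far a value moved, since Ocrl was at 3.07 without the offset. Of genes that did not pass, Psma7 moved from 0.10 to 0.80 (adjusted p = 0.0556), Nlrp14 from 0.77 to 0.33, Btg4 from 0.68 to 0.17, mt-Co1 from 0.72 to 0.18 and mt-Nd1 from 1.01 to 0.33. The part of depth in this relation was not tested.

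**Figure D3:**
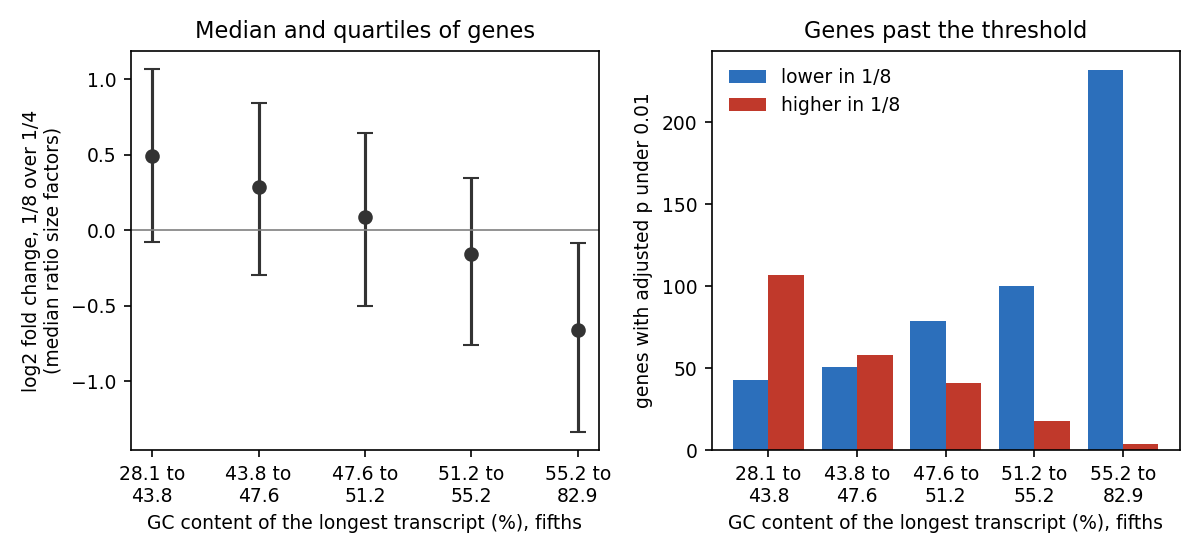
Log2 fold change of 1/8 over 1/4 (left, median with quartiles) and number of genes past the threshold (right, bars) in 5 equal bins of transcript GC content. Medians go from 0.49 to -0.66, and falls from 43 to 232 while rises go from 107 to 4, between the lowest and the highest bin.

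Abundance was taken from the 4 whole oocytes at 10 and 14 cycles, which are outside the comparison. Genes under 1 CPM had a median log2 fold change of -0.51. The median went through -0.10, 0.03 and 0.15 to 0.53 in the 81 genes over 1000 CPM. Of those 81 genes, 18 rose and 3 fell, where 1.54% and 3.42% of all genes did. The order of the medians turned when abundance was taken from the 1/2 libraries, with 0.14 under 1 CPM and -0.20 over 1000 CPM. Rises and falls were not counted in the classes by the 1/2 libraries. Protein-coding genes (12344) had a median of -0.01, with 454 falls (3.68%) and 198 rises (1.60%), against 3.42% and 1.54% of all genes. Long noncoding RNAs (1740.0) had 0.26, with 35 falls (2.01%) and 25 rises (1.44%). Pseudogenes (445) had 0.19, with 6 falls (1.35%) and 2 rises (0.449%). Genes of the annotation class TEC, whose coding status is open, numbered 191 and had a median of -0.32. They held 9 falls (4.71%) and 2 rises (1.05%).

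At equal depth the number of genes detected was close in both fractions, and a little lower in 1/8 on average (15657 against 15801), a difference that was not tested. With at least 5 counts required the order turned (11620.0 against 11565). At 1702062 counts per library, 15633 and 15682 genes would be detected in 1/8, 15661 and 15942 in 1/4, and 15182 and 15423 in 1/2. The groups overlapped, with 1 library of 1/8 below both of 1/4 and the other between them. As deposited, 18706 and 15682 genes were detected in 1/8 and 17310.0 and 18092 in 1/4, in the order of depth. Of genes at 1 to 10 CPM in the whole oocytes, 82.2% and 82.6% would be detected in 1/8 and 81.5% and 84.2% in 1/4. Genes seen in both libraries of a group made up 78.0% of those seen in either in 1/8, and 78.8% in 1/4.

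Complete loss of a message was rare. With at least 5 counts in both 1/4 libraries, 84 of 12539 genes (0.670%) had 0 counts in both 1/8 libraries, and in reverse 26 of 11417 (0.228%) had 0 in both 1/4 libraries. At equal depth, chosen after seeing the data, the numbers were 42 of 10751 (0.391%) and 17 of 10642 (0.160%). Of the 84 genes, 73 are protein-coding, 68 were detected in all 4 whole oocytes at 10 and 14 cycles and 37 in both 1/2 libraries, and their median GC content was 54.4%, against 44.4% for the 26. Examples, named after their values were seen, are Klhl35, for a kelch-like protein, with 16 and 48 raw counts in 1/4, Gpkow, for a splicing factor, with 20 and 38, and Aar2, for an assembly factor of the U5 snRNP, with 23 and 26, all at 0 in both 1/8 libraries. Absence is limited by depth, since 0 counts allow up to 3 in each library. The order of both numbers depended on 1 library: without 1/8 replicate 2 they were 163 and 519, without 1/8 replicate 1 434 and 64, without 1/4 replicate 1 283 and 53, and without 1/4 replicate 2 210 and 92. At equal depth more were lost in 1/8 in each case, at 115 and 82, 133 and 125, 109 and 65, and 111 and 76 in the same order.

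Replicates differed more at 1/8 than at 1/4. At equal depth the SD of the log2 difference between the libraries of a group was 0.951 over 11599 genes in 1/8 and 0.719 over 11512 in 1/4, against 0.775 in 1/2 and 0.929 in whole oocytes at 18 cycles. The order of 1/8 and 1/4 held in each class shown, at 1.503 and 1.13 for 1 to 10 CPM, 0.782 and 0.587 for 10 to 100, 0.460 and 0.309 for 100 to 1000, and 0.405 and 0.306 over 1000 CPM. The neighbours did not keep this order in abundant classes. At 100 to 1000 CPM the SD was 0.447 in 1/2 and 0.555 in whole oocytes at 18 cycles, and over 1000 CPM it was 0.481 and 0.670, above 1/8. Among abundant messages Khdc3 differed within 1/8 (14295 and 6815 normalised counts) and within 1/4 (75869 and 46865). Each SD comes from a single pair of libraries, and the difference between the groups was not tested.

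**Figure D4:**
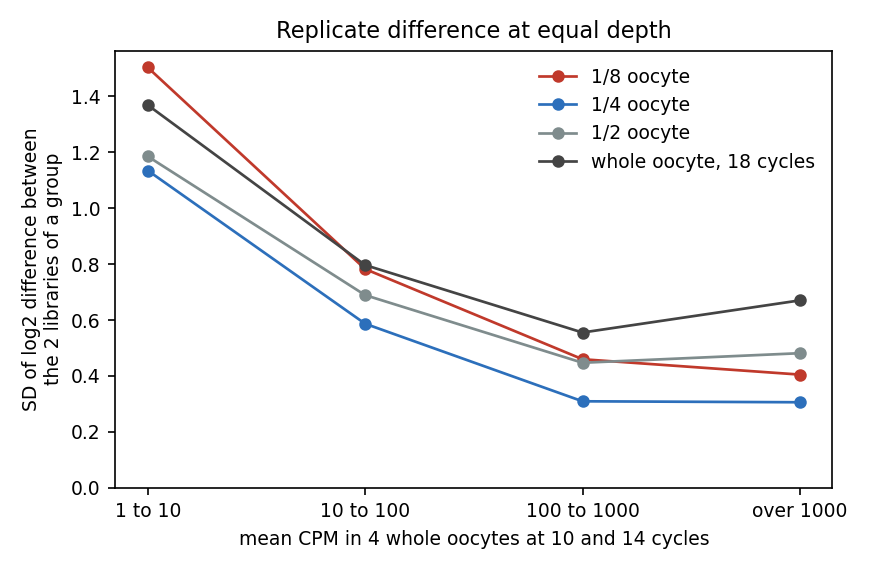
SD of the log2 difference between the 2 libraries of a group (vertical axis, equal depth) by mean CPM in whole oocytes at 10 and 14 cycles (horizontal axis), with a line per input. The 1/8 line lies above the 1/4 line in every class shown, from 1.503 against 1.13 at 1 to 10 CPM to 0.405 against 0.306 over 1000 CPM.

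The step from 1/4 to 1/8 was last set against the step from 1/2 to 1/4 in 1 contrast, since both are 2-fold dilutions and share the 1/4 libraries. With ERCC scaling the medians were -2.19 and -0.73, and 1111 genes had a more negative step to 1/8 at an adjusted p under 0.01, against 0 with a less negative one (49 at an unadjusted p under 0.05, and 0 with DESeq2). The median of the difference was -1.45. All genes share the same ERCC size factors, so the 1111 and the 0 largely carry 1 shift between libraries. They are not separate evidence that the steps differ. The 0 became 3 without 1/8 replicate 1, and 1 without 1/4 replicate 2 or without either whole oocyte at 18 cycles. The 1111 rested on single libraries, at 86 without 1/4 replicate 1, 417 without 1/2 replicate 2, 553 without 1/4 replicate 2, 656 without 1/2 replicate 1, 684 without 1/8 replicate 2, 1776 without whole oocyte replicate 1 and 1826 without whole oocyte replicate 2. In proportions among messages, by median ratio, 117 genes (0.791%) had a more negative and 5 a less negative step, with a median of -0.01. The 117 became 4 without 1/2 replicate 1, 11 without 1/4 replicate 1, 22 without 1/2 replicate 2, 48 without 1/4 replicate 2 and 55 without 1/8 replicate 2. The 5, named after their values were seen, are Gpd2 (5.20, adjusted p = 0.00275), for mitochondrial glycerol-3-phosphate dehydrogenase, Oosp3 (3.69, adjusted p = 0.00779), Smco4 (3.26, adjusted p = 0.00871), Tctex1d1 (3.52, adjusted p = 0.00677) and Tmem128 (3.20, adjusted p = 0.00814), of which Gpd2, Oosp3 and Tctex1d1 overlap other genes. Their number was 11 without either whole oocyte at 18 cycles, 2 without 1/4 replicate 2, 1 without 1/8 replicate 2, and 0 without 1/2 replicate 1, 1/2 replicate 2 or 1/4 replicate 1 (738, 953 and 340.0 at an unadjusted p under 0.05).

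Side by side, Gsc went from 67.8 and 67.5 normalised counts in 1/2 through 182 and 184 in 1/4 to 12.3 and 1.98 in 1/8, so that its steps were 1.43 and -4.26. Pim3 went from 77.4 and 68.5 through 265 and 153 to 6.76 and 17.8, with steps of 1.51 and -4.41. By median ratio the step from 1/2 to 1/4 did not pass the threshold in either gene (adjusted p = 0.18 for Gsc and 0.169 for Pim3), nor in any other, with 0 calls in edgeR, 915 lower and 927 higher genes at an unadjusted p under 0.05, and no run of DESeq2. With ERCC scaling 5 genes were lower and 1 higher past the threshold in that step, and 3375 and 157 at an unadjusted p under 0.05. Among the fractions both genes were thus highest in 1/4, and the 1/4 libraries enter both steps. In whole oocytes at 18 cycles Pim3 had 329 and 131. Bmp15, by contrast, went from 2454 and 3458 over 3593 and 3627 to 8475 and 9597, with steps of 0.29 and 1.32 whose difference did not pass the threshold (adjusted p = 0.25).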

How the data were processed

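The submitters' processing notes name cutadapt 2.5 for trimming, STAR 2.7.2a for mapping to GRCm38 (mm10) and HTSeq 0.9.1 for counting, whereas the study's methods name newer versions of all of them. The count of reads per gene and per ERCC molecule was deposited by the authors without removal of duplicates. Reads on no feature (7.75% and 8.32% in 1/8, 7.82% and 7.43% in 1/4) were left out. GENCODE mouse release 21 lists 55480 of the 55573 genes. The methods give default parameters for HTSeq, the files' names point to counting without strand, and the sources used here do not settle which holds; this bears on every count. Overlapping genes are therefore called uncertain.

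Of the 8 libraries at 18 cycles, 2 or more had to hold 5 or more counts of a gene or ERCC molecule, and those kept were fitted by group with edgeR 4.0.16 in R 4.3.3 (quasi-likelihood test, Benjamini-Hochberg, threshold 0.01), with median-ratio size factors from 26 ERCC molecules or from genes. The p-values measure only the spread between these libraries. Expected detection used the hypergeometric distribution at the smallest total. Exact tests, correlations and Wilson intervals used Python 3.11.15 with NumPy 2.4.6, pandas 2.3.3 and SciPy 1.17.1. Scripts were tested on simulated data.

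Named genes are the 3 most abundant members of each list in whole oocytes at 10 and 14 cycles, the 5 largest rises and falls as described, and the 3 genes with the most counts; a member that the rule takes is not reported here. Members and lists were chosen with earlier results of these data known. Alternatives were DESeq2 1.42.0, other filters, other size factors, fewer libraries, the replicate number as a block, and each library left out in turn, where the lone library of a group is assumed to vary like the others. The methods do not say that libraries with the same number come from the same oocyte.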

Additional observations from a re-analysis of the deposited data

Results flagged for a closer look

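The 5 largest falls from 1/4 to 1/8 met the rule for a closer look, an adjusted p under 0.01 for the difference between that step and the step from 1/2 to 1/4 (edgeR, median ratio scaling). A high value in 1/4 enters both the choice of these genes and the difference, so the values describe that choice and are no separate evidence that the steps differ. The noncoding RNA Gm26917 had a difference of -13.86 on the log2 scale, with 6.69 and 104 normalised counts within 1/2 and 6773 and 4.75 within whole oocytes at 18 cycles. The difference was -5.92 for the kinase gene Pim3. For Plekhf2 it was -5.96. For the homeobox gene Gsc it was -5.69. For Akirin1 it was -5.68. The step from 1/2 to 1/4 did not itself pass the threshold in any of them, with adjusted p of 0.088 for Gm26917, 0.169 for Pim3, 0.229 for Plekhf2, 0.18 for Gsc and 0.233 for Akirin1. Without 1/2 replicate 1 no difference among the 5 had an adjusted p under 0.01, the lowest being 0.0115 for Pim3 and Gsc and the highest 0.0384 for Gm26917. Gm26917 also lost it without 1/8 replicate 1 (0.0114), 1/8 replicate 2 (0.013) or 1/2 replicate 2 (0.0143), and with DESeq2 (0.0235). Plekhf2 lost it without 1/8 replicate 1 (0.0233), 1/2 replicate 2 (0.023), 1/4 replicate 1 (0.0229) or 1/4 replicate 2 (0.0196). Akirin1 lost it without 1/2 replicate 2 (0.0237), 1/4 replicate 1 (0.0165) or 1/4 replicate 2 (0.0363), and Pim3 without 1/4 replicate 1 (0.0109). Gsc kept it without any library other than 1/2 replicate 1.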

How the results depend on the processing

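The 4.03-fold step in gene counts per ERCC count kept its direction throughout, from 3.63-fold without 1/4 replicate 1 to 4.48-fold without 1/4 replicate 2. The number of genes lower with ERCC scaling stayed within 1.5 times of 8895 (5938 to 9617 with a library left out). Of the values of the main results, 111 stayed within their spread or within 1.5 times, 90 moved and 4 reversed, and the cause was not tested. The SDs between replicates as deposited were counted among the 90 without such a comparison. With 2 libraries per group, counts of calls are set by single libraries, and depth limits what can be said of genes under 1 CPM. The GC offset and the equal-depth losses were chosen after seeing the data.

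Below the 2-fold step lay 4954 genes with only the 4 libraries in the fit and 1837 with total ERCC counts; with a library left out the range was 805 to 4356. Total ERCC counts moved the median against the step from -1.19 to -0.93, and the median fold change from -2.19 to -1.92. Above the step lay 2 with DESeq2, 2 with at least 10 counts in every library, 3 with the 4 libraries and 6 with the 6 fractional libraries (range 0 to 3). Genes higher with ERCC scaling ranged from 0 to 1. By median ratio, no filter gave 833 falls and 383 rises, DESeq2 384 rises and the GC offset 148 rises, with ranges of 90 to 545 and 12 to 262. For the difference of the steps by median ratio, the counts below and above 0 were 232 and 71 with DESeq2 and 438 and 63 with no filter. There were 64 below with at least 10 counts in every library and 12 above with the 6 fractional libraries (ranges 4 to 154 and 0 to 11). With ERCC scaling there were 1895 below and 2 above with the 6 fractional libraries, and 2 above with at least 10 counts (ranges 86 to 1826 and 0 to 3).

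Detection averaged 15657 genes in 1/8 and 15801 in 1/4 at equal depth, 11620.0 and 11565 with at least 5 counts, and 17194 and 17701 as deposited (15633 to 15682 and 15661 to 15942 with a library left out). Genes lost in 1/8 and in 1/4 were 31 and 1 with at least 10 counts, 132 and 46 with at most 1 count in place of 0, and 42 and 17 at equal depth, with ranges of 163 to 434 and 53 to 519 as deposited. At equal depth they were 133 and 125 without 1/8 replicate 1, 115 and 82 without 1/8 replicate 2, 109 and 65 without 1/4 replicate 1, and 111 and 76 without 1/4 replicate 2. As deposited, the SD between replicates was 1.14 in 1/8 and 0.897 in 1/4. With abundance from the 1/2 libraries the medians reversed to 0.14 under 1 CPM, 0.10 at 1 to 10, -0.0900 at 100 to 1000 and -0.20 over 1000 CPM.

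The replicate number as a block gave 4887 genes below and 4 above the 2-fold step, and 286 below and 31 above 0 for the difference of the steps (2393 and 1 with ERCC scaling). It gave 682 falls and 292 rises by median ratio and 9405 lower genes with ERCC scaling. Deviations of same-numbered libraries from their group means correlated at 0.018 over 9484 genes, so the pairing is not established.

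Of the values for named genes, 640.0 kept direction and side of the threshold, 29 lost and 14 gained the threshold, and 9 reversed, none of them past the threshold. With a library left out, log2 values of both signs were found for Gdf9 (-0.0248 without 1/4 replicate 2 to 0.40 without 1/4 replicate 1), Rplp0 (-0.55 without 1/8 replicate 1 to 0.26 without 1/8 replicate 2) and Atp5b (-0.0822 without 1/8 replicate 1 to 0.39 without 1/8 replicate 2). With the GC offset Zp2 turned to -0.0759, Cpeb1 to -0.0443, Rplp0 to 0.0758, Cox4i1 to 0.24 and CT010467.1 to 0.14.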
